A study of Mus musculus with 18 samples.

Results

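The genes described here are the carriers and pumps that move drugs, metabolites and lipids across kidney membranes: 80 of the 15035 genes measured in mouse kidney cortex by RNA sequencing. They were taken by symbol, as the measured genes of the Slc22a, Slco and Slc47a carrier families and of the Abca to Abcg families of ATP-binding cassette (ABC) proteins. The set holds 21 Slc22a, 10 Slco, 1 Slc47a and 48 Abc genes. The rule leaves out 1 Slc22a gene and uses no measured value.

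The series compared 6 groups of 3 mice, in work whose title concerns combination therapy for lupus nephritis. Mice of the healthy group were Mrl/Mpj wild type and had vehicle. The remaining 15 were Mrl/lpr and received vehicle, MMF, FK506, prednisone or a multi-target treatment. The lpr allele disrupts the death receptor gene Fas, and mice of this strain develop lymphoproliferation and lupus-like kidney disease. MMF (mycophenolate mofetil) blocks purine synthesis in lymphocytes, FK506 (tacrolimus) inhibits calcineurin, and prednisone is a glucocorticoid. The labels used here give no dose, age, sex or duration, and do not say which drugs the multi-target treatment combined. Sample titles of the healthy mice follow another naming scheme from those of the Mrl/lpr mice, and whether the 2 strains were processed separately is not given in the sources used here, so strain and any such processing step cannot be told apart. Mice are called by their group and the number in their title. Nothing says that same-numbered mice belong together, and p-values measure only the spread between these mice.

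Proximal tubule cells take up organic anions and cations from blood through Slc22 carriers of the basolateral membrane, and ABC pumps and MATE exchangers of the brush border pass them into urine. Slco carriers (organic anion transporting polypeptides) take up larger amphipathic anions such as steroid conjugates, prostaglandins and thyroid hormones. Other ABC proteins move sterols and phospholipids out of cells, carry fatty acids into peroxisomes, or serve mitochondria and ribosomes. Many of these carriers handle drugs, uraemic solutes and urate, which makes them of interest in kidney disease.

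Values are log2 expression values per gene as deposited, and 1 unit on this scale is a factor of 2. They are not scaled to gene length, so levels are compared between mice and never between genes. Libraries held 28939846 to 41066954 recovered reads, the median member value stood for 1135.5 reads, and the lowest for 30 reads, in Slc22a28. The libraries with the fewest recovered reads were those of MMF mice 27, 14 and 1, and the part of depth in the MMF differences was not tested. For 11 members, among them Slc22a8, Slc22a18, Slco2b1, Abcc4 and Abcc10, the values were not whole reads, and how they were summarised is unknown. The median within-group SD was 0.31 for the members and 0.22 for all genes. The tissue label was checked with 21 proximal tubule genes, among them the endocytic receptor Lrp2, at 17.04, 16.80 and 16.48 in the 3 healthy mice. Vehicle mouse 17 held adipocyte transcripts (Adipoq at 11.30, against 3.89 and 4.07 in vehicle mice 7 and 36) and FK506 mouse 12 held adrenal ones (Cyp11a1 at 11.37, against 5.49 and 5.73 in FK506 mice 3 and 24). Each piece of cortex mixes cell types, so fewer cells of a type and less RNA per cell cannot be told apart in any result below.

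Promoter windows, 250 bases before to 50 after a start in the RefSeq table for GRCm38.p6, were searched on both strands for 3 motifs. A window of Abcd3, the importer of branched and long-chain acyl-CoA into peroxisomes, is shown because Abcd3 had the smallest adjusted p of any member in disease and was the only member with a match to CAAAGTCCA, the core letters bound by the nuclear receptor HNF4. It lies on the minus strand at chr3:121815253-121815552, and the match is in capitals.
Abcd3: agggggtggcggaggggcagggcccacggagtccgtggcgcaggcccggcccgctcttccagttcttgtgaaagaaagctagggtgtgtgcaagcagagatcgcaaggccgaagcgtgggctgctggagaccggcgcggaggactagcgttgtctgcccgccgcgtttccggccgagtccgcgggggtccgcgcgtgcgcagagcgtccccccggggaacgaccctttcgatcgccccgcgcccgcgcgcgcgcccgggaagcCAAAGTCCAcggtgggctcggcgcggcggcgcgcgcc
Of 72 windows found for 62 of the members, this was the 1 that held CAAAGTCCA (1.39%, against 0.475% of all 32851 windows in the table), and a match is only a run of letters. The nuclear receptor element AGGTCA was in 13.9% of member windows and 16.3% of all, and the antioxidant element TGACNNNGC in 13.9% and 12.4%.

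Among the organic anion carriers, 7 Slc22a members lie in 1 run on chromosome 19 (GRCm38, 7673061 to 8628299, 955 kb): Slc22a19, Slc22a27, Slc22a28, Slc22a29, Slc22a30, Slc22a8 and Slc22a6. Slc22a6 and Slc22a8 encode OAT1 and OAT3, the main basolateral uptake carriers for organic anions in the proximal tubule. Slc22a28 and Slc22a30 are rodent relatives of the OATs whose substrates are little described, and they are near copies. Their windows, on the minus strand at chr19:8131933-8132232 and chr19:8405056-8405355, were identical at 288 of 294 aligned bases (98%), and capitals mark the 6 bases at which they differ.
Slc22a28: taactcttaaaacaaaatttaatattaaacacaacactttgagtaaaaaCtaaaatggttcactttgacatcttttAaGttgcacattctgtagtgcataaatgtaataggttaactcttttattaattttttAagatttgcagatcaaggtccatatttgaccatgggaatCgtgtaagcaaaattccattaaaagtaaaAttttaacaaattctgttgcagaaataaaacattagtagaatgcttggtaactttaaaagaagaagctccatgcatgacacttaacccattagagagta
Slc22a30: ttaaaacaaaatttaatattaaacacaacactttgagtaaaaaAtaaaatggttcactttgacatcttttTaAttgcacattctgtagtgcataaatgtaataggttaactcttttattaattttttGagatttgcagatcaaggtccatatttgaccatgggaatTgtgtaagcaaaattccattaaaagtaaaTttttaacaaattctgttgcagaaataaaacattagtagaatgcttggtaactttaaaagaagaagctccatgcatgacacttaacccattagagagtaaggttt
Transcripts of the pair were 93.27% identical over their aligned part, those of Slc22a27 and Slc22a29 were 96.08% identical, and those of Abcb1a and Abcb1b 88.03%. How the authors assigned reads that fit more than 1 gene is not given in the sources used here, so the split of signal between such near copies is uncertain.

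Vehicle-treated Mrl/lpr mice were set against the healthy mice to see which carriers differ in untreated lupus nephritis. In the vehicle mice 15 members fell and 8 rose (limma, adjusted p under 0.05), which is 28.7% of the 80 members against 22.4% of all 15035 genes. The unadjusted p was under 0.05 for 38 members (47.5%) and 37.2% of all genes. Falls outnumbered rises among the members, and rises outnumbered falls among all genes: 6.76% of all genes fell and 15.7% rose, the median member difference was -0.30 against 0.09 for all genes, and 57 of 80 members lay below 0. After quantile normalization the median of all genes shifted to -0.07, 43.7% of called genes rose in place of 69.8%, and 5 members rose and 19 fell. Of the 15 falls 8 were in Slc22 carriers, and of the 8 rises 4 were in lipid and sterol transporters. All 3 vehicle mice were below all 3 healthy mice for 35 members (43.8%; 19.8% of all genes) and above them for 15 (18.8%; 32.6% of all genes). The count of members called rested on few mice: it was 9 without vehicle mouse 36, 24 without vehicle mouse 17, and 11, 13 and 13 without healthy mouse 1, 2 and 3. Shares of all genes called in these fits are not given here, so no change particular to the members is read from the counts. The excess of falls was lost without vehicle mouse 36 (5 rose, 4 fell, median -0.15) and without healthy mouse 1 (6 rose, 5 fell, median -0.29). It narrowed to 6 rises and 7 falls without healthy mouse 2 (median -0.29) and without healthy mouse 3 (median -0.30). Of the members named below, quantile normalization also ended the calls of Slc22a8, Slc22a5, Slc22a15, Slc22a18, Slc22a23, Abcg2, Abca8a and Abca9 (adjusted p from 0.0536 to 0.0937). Fitting the healthy and vehicle mice alone ended those of Slc22a29, Slc22a15, Slc22a18, Abcb1b and Abca8a (0.0717 to 0.127), and that of Slco1a6, given below. The voom count model ended those of Slc22a5 and Slc22a23 (0.0564 and 0.0618), and leaving out both vehicle mouse 17 and FK506 mouse 12, the mice holding other tissue, those of Abca8a, Abcb1b and Abcg2 (0.075, 0.102 and 0.0669).

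**Figure D1:**
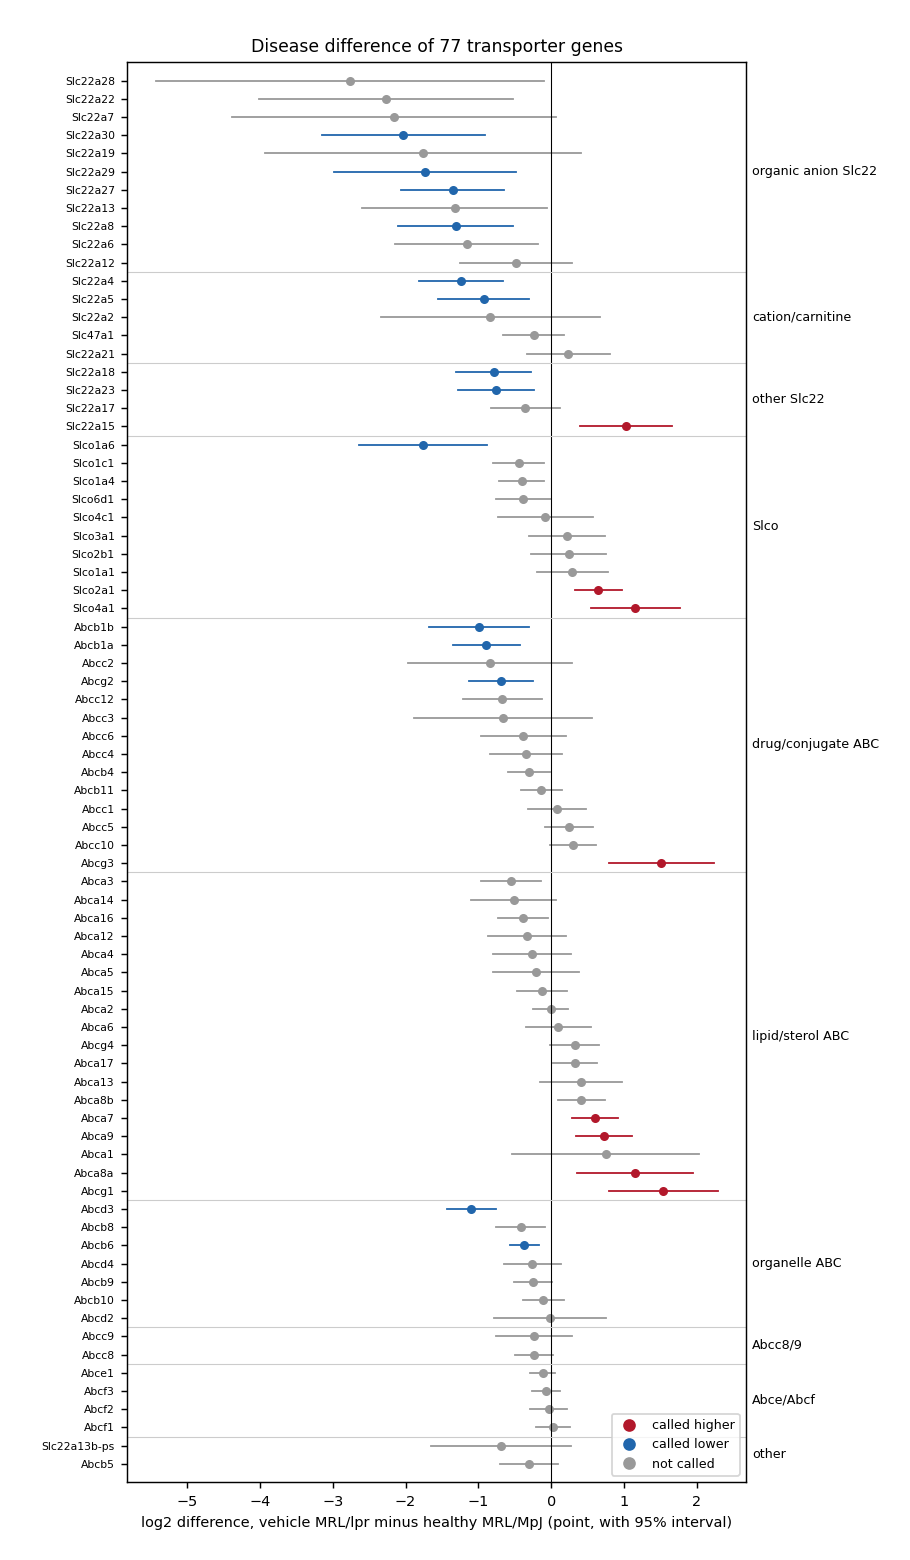
Each point is the log2 difference of 1 of 77 members, vehicle Mrl/lpr minus healthy Mrl/Mpj (3 mice each), with its 95% interval, grouped by role. The 14 blue points are members that fell, the 8 red points members that rose, and all 11 organic anion carriers of the Slc22 family lie below 0.

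All 11 organic anion carriers of the Slc22 family had a negative disease difference, with a median of -1.74, and 4 of them fell: Slc22a30, Slc22a29, Slc22a27 and Slc22a8. Slc22a8 (OAT3) was at 15.69, 15.60 and 15.54 in the healthy mice and at 14.37, 14.82 and 13.70 in vehicle mice 7, 17 and 36. The groups did not overlap, and the difference was -1.31 (SE 0.37, limma adjusted p = 0.0224). Slc22a30 was at 9.48, 9.28 and 9.50 in healthy and 7.51, 7.85 and 6.80 in vehicle mice, a difference of -2.03 (SE 0.52, limma adjusted p = 0.0141). Vehicle mouse 36 was the lowest mouse for both genes.

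Slc22a27, a further OAT relative of the chromosome 19 run, was at 7.66, 7.91 and 7.67 in healthy and 6.40, 6.80 and 5.97 in vehicle mice, a difference of -1.36 (SE 0.33, limma adjusted p = 0.011). Slc22a29 was at 10.78, 10.93 and 11.04 in healthy and 9.84, 10.04 and 7.65 in vehicle mice, a difference of -1.74 (SE 0.59, limma adjusted p = 0.0453). For Slc22a29 vehicle mouse 36 stood apart from the other vehicle mice, and without it the difference was -0.98 (adjusted p = 0.252). Without that mouse limma called 0 of the 11 organic anion carriers, 3 had an unadjusted p under 0.05, and their median difference was -0.98. Slc22a30 was then at -1.74 (adjusted p = 0.077), Slc22a27 at -1.14 (0.0616) and Slc22a8 at -1.02 (0.123). Slc22a8 and Slc22a29 were also not called without healthy mouse 1 (adjusted p = 0.0714 and 0.0972), 2 (0.0619 and 0.105) or 3 (0.0561 and 0.113).

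Slc22a6 (OAT1) did not pass the test. It was at 14.87, 14.88 and 14.71 in healthy and 13.93, 13.80 and 13.24 in vehicle mice, with no overlap and a difference of -1.16 (SE 0.46, limma adjusted p = 0.0816). Slc22a7 encodes OAT2 and had a wide spread, at 13.23, 12.96 and 13.36 in healthy and 11.89, 12.88 and 8.31 in vehicle mice. Vehicle mouse 36 again stood lowest and the interval of the difference ran from -4.39 to 0.07. Slc22a12, the urate reabsorption carrier URAT1, was at 14.97, 15.04 and 14.96 in healthy and 14.59, 14.91 and 14.03 in vehicle mice, a difference of -0.48 (SE 0.36, limma adjusted p = 0.348). The most negative disease difference of any member was in Slc22a28, named after its values were seen, at -2.77 (SE 1.25, limma adjusted p = 0.121), and its spread among Mrl/lpr mice is described further below. The remaining members of the role, Slc22a22, Slc22a19 and Slc22a13, were at -2.27, -1.76 and -1.33 and did not pass (adjusted p = 0.0585, 0.222 and 0.12).

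Proximal tubule genes moved with these carriers: all 21 on the marker list had a negative disease difference (median -1.12) and 8 of them fell. Their mean level relative to healthy was -0.04 to 0.05 in the healthy mice and -1.03, -0.67 and -2.17 in vehicle mice 7, 17 and 36, the last being the mouse in which the organic anion carriers were lowest. The part of this shift in the carrier differences was not tested.

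**Figure D2:**
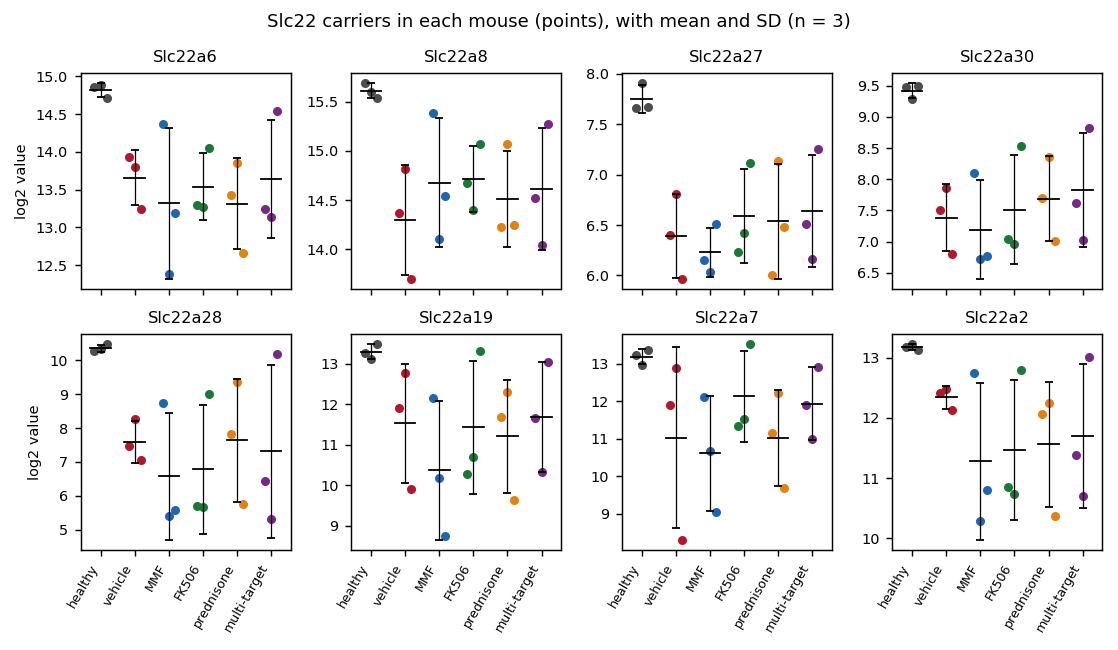
Points are the log2 values of single mice for 8 Slc22 carriers in the 6 groups, with the group mean and SD (n = 3). Healthy mice lie close together for every gene, and in Slc22a28, Slc22a19 and Slc22a7 the mice of 1 treatment arm are up to several units apart.

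Of the 6 carriers of cations, carnitine and zwitterions, 2 fell, and both are OCTN carriers. Slc22a4 (OCTN1), which takes up the antioxidant ergothioneine, was at 11.72, 11.43 and 11.55 in healthy and 10.39, 10.69 and 9.91 in vehicle mice, a difference of -1.24 (SE 0.27, limma adjusted p = 0.00542). It remained called in each of the 14 alternatives tried, with -1.02 without vehicle mouse 36 (adjusted p = 0.0356). Slc22a5 (OCTN2), the carnitine reabsorption carrier, was at 14.16, 14.33 and 14.29 in healthy and 13.11, 13.89 and 12.98 in vehicle mice, a difference of -0.93 (SE 0.30, limma adjusted p = 0.0361). Its call was lost without any 1 of healthy mice 1, 2 and 3 and vehicle mice 7 and 36 (adjusted p = 0.0785, 0.0993, 0.0911, 0.0848 and 0.167).

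Slc22a2 and Slc47a1, which carry drug cations, were not called. Slc22a2 (OCT2), the main basolateral cation carrier of the tubule, was at 13.17, 13.23 and 13.13 in healthy and 12.42, 12.48 and 12.13 in vehicle mice, with no overlap and a difference of -0.83 (SE 0.71, limma adjusted p = 0.411). Slc47a1 (MATE1), the proton exchanger that passes cations into urine, was at 14.68, 14.64 and 14.69 in healthy and 14.60, 14.66 and 14.04 in vehicle mice, a difference of -0.24 (SE 0.20, limma adjusted p = 0.398). For Slc47a1 the groups overlapped.

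The other Slc22 members split: 2 fell and 1 rose among 4. Slc22a18, an orphan carrier of an imprinted region, was at 14.25, 14.08 and 14.09 in healthy and 13.69, 13.81 and 12.56 in vehicle mice, a difference of -0.79 (SE 0.24, limma adjusted p = 0.0317). Slc22a23, also an orphan, was at 13.24, 13.25 and 13.07 in healthy and 12.32, 12.69 and 12.27 in vehicle mice, a difference of -0.76 (SE 0.24, limma adjusted p = 0.0368). Slc22a15, a carrier of zwitterions, rose from 7.08, 7.14 and 6.75 in healthy to 7.59, 7.47 and 8.97 in vehicle mice, a difference of 1.02 (SE 0.30, limma adjusted p = 0.0247). Vehicle mouse 36 was the extreme mouse for all 3 genes, and without it the differences were -0.39 in Slc22a18 (adjusted p = 0.103), -0.68 in Slc22a23 (0.143) and 0.54 in Slc22a15 (0.0828). Leaving out any 1 healthy mouse also ended these 3 calls, with adjusted p between 0.0507 and 0.104, as did leaving out vehicle mouse 7 for Slc22a23 (0.0751).

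Among the 10 Slco carriers 2 rose and 1 fell, with a median difference of 0.07 (-0.08 without vehicle mouse 36). Slco1a6, an uptake carrier of mouse kidney for amphipathic anions, was at 14.11, 13.88 and 14.05 in healthy and 12.52, 13.16 and 11.08 in vehicle mice. The groups did not overlap and the difference was -1.76 (SE 0.41, limma adjusted p = 0.00822), and without vehicle mouse 36 it was -1.18 (adjusted p = 0.0325). The call was lost when only the healthy and vehicle mice were fitted (adjusted p = 0.0534). Slco1a1, which shares 84.53% of its aligned transcript with Slco1a6, was at 6.67, 6.92 and 6.77 in healthy and 6.83, 6.72 and 7.66 in vehicle mice, a difference of 0.29 (SE 0.23, limma adjusted p = 0.381).

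Slco4a1, a thyroid hormone carrier, rose from 8.24, 8.25 and 8.10 in healthy to 8.93, 9.04 and 10.08 in vehicle mice, a difference of 1.15 (SE 0.29, limma adjusted p = 0.0115). Slco2a1, the prostaglandin uptake carrier, rose from 11.12, 10.94 and 11.15 in healthy to 11.56, 11.63 and 11.96 in vehicle mice, a difference of 0.65 (SE 0.15, limma adjusted p = 0.00854). In both, every vehicle mouse was above every healthy mouse. Without vehicle mouse 36 the differences were 0.79 (adjusted p = 0.0607) and 0.53 (adjusted p = 0.051). Slco4c1, the OATP of the basolateral tubule membrane, had a difference of -0.08 (SE 0.31, limma adjusted p = 0.876), with 6.72, 7.14 and 6.63 in healthy and 6.99, 6.87 and 6.39 in vehicle mice. Slco2b1, a broad steroid sulfate carrier, was at 10.22, 10.05 and 10.39 in healthy and 10.59, 10.65 and 10.14 in vehicle mice, a difference of 0.24 (SE 0.24, limma adjusted p = 0.498), and the groups overlapped for both genes. Of the remaining Slco carriers, Slco1c1, Slco1a4, Slco6d1 and Slco3a1 had differences of -0.45, -0.41, -0.38 and 0.22, and did not pass.

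Of the 14 pumps for drugs, conjugates and bile salts, 3 fell and 1 rose. P-glycoprotein, the multidrug pump, is encoded in mice by a gene pair, and both genes fell. Abcb1a was at 10.86, 10.55 and 10.18 in healthy and 9.81, 9.54 and 9.58 in vehicle mice, a difference of -0.89 (SE 0.21, limma adjusted p = 0.00959). Abcb1b was at 11.52, 11.47 and 11.29 in healthy and 11.20, 10.12 and 9.96 in vehicle mice, a difference of -0.997 (SE 0.32, limma adjusted p = 0.0386), with vehicle mouse 7 close to the healthy mice. Abcg2 (BCRP), a brush border pump for urate and sulfate conjugates, was at 14.17, 14.12 and 14.20 in healthy and 13.77, 13.48 and 13.17 in vehicle mice, a difference of -0.69 (SE 0.21, limma adjusted p = 0.0297). Abcb1a lost its call without healthy mouse 1 (-0.73, adjusted p = 0.0554). Abcb1b and Abcg2 lost theirs without any 1 of healthy mice 1, 2 and 3 and vehicle mice 17 and 36, with adjusted p up to 0.19 and 0.15, both without vehicle mouse 36.

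Abcg3, a rodent relative of Abcg2, went the other way. It was at 5.38, 5.83 and 5.77 in healthy and 6.81, 7.17 and 7.54 in vehicle mice, a rise of 1.51 (SE 0.34, limma adjusted p = 0.00651) that passed in each of the 13 alternatives that tested it. Abcc2 (MRP2), the brush border pump for glutathione and glucuronide conjugates, was at 13.31, 13.08 and 12.92 in healthy and 12.47, 12.09 and 12.22 in vehicle mice. These groups did not overlap, but the difference of -0.85 (SE 0.53, limma adjusted p = 0.258) did not pass against a within-group SD of 0.72 pooled over the 6 groups. Abcc4 (MRP4), which exports cyclic nucleotides and urate, was at 12.84, 12.86 and 12.48 in healthy and 11.98, 12.21 and 12.95 in vehicle mice, a difference of -0.35 (SE 0.23, limma adjusted p = 0.284), and its groups overlapped. The other 8 pumps ran from -0.67 in Abcc12 to 0.30 in Abcc10 and did not pass.

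Among lipid and sterol transporters rises outnumbered falls, with 4 of 18 higher and none lower (limma; 8 of the 18 had an unadjusted p under 0.05). Rises also outnumbered falls among all genes, of which 15.7% rose, 6.76% fell and 37.2% had an unadjusted p under 0.05. Abcg1, which passes cholesterol to high-density lipoprotein, was at 8.41, 8.47 and 8.39 in the healthy mice and at 9.84, 9.79 and 10.27 in the vehicle mice, a difference of 1.54 (SE 0.35, limma adjusted p = 0.00722). Abca7, a phospholipid transporter of myeloid and other cells, was at 10.21, 10.04 and 10.08 in healthy and 10.57, 10.80 and 10.77 in vehicle mice, a difference of 0.60 (SE 0.15, limma adjusted p = 0.0106). Both passed in each of the 14 alternatives.

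Abca8a and Abca9 belong to a cluster of lipid transporter genes of the Abca5 type. Abca8a was at 9.46, 9.14 and 9.22 in healthy and 11.01, 10.73 and 9.53 in vehicle mice, a difference of 1.15 (SE 0.37, limma adjusted p = 0.0384). Here vehicle mouse 36 lay nearest to healthy, and the difference was 1.60 without it (adjusted p = 0.00802). Without vehicle mouse 7 or 17 or healthy mouse 1, 2 or 3 the call was lost (adjusted p = 0.118, 0.101, 0.0743, 0.109 and 0.0964). Abca9 was at 9.21, 9.11 and 9.21 in healthy and 9.95, 10.18 and 9.57 in vehicle mice, a difference of 0.72 (SE 0.18, limma adjusted p = 0.0126), which was 0.50 and not called after quantile normalization (adjusted p = 0.0707). Abca1, the pump that loads apolipoprotein A-I, was at 11.52, 11.52 and 11.07 in healthy and 12.27, 11.28 and 12.80 in vehicle mice. Its groups overlapped through vehicle mouse 17, and the difference of 0.75 (SE 0.60, limma adjusted p = 0.385) did not pass. The other 13 lipid transporters lay between -0.55 (Abca3) and 0.42 (Abca8b).

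Macrophage genes moved beside these rises: 15 of 16 macrophage and myeloid markers rose (median 3.31), and their mean level relative to healthy was -0.24 to 0.20 in healthy mice and 2.60, 2.96 and 3.54 in vehicle mice 7, 17 and 36. T cell markers rose in 9 of 10 cases (median 1.85). Their part in the rises of Abcg1, Abca7, Abcg3 and Slco2a1 was not tested.

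Among 9 ABC proteins of organelles 3 fell. Abcd3, whose promoter window is shown above, was at 14.43, 14.41 and 14.54 in healthy and 13.19, 13.56 and 13.32 in vehicle mice. The groups were far apart beside their spread and the difference was -1.10 (SE 0.16, limma adjusted p = 0.000276), the smallest adjusted p of any member. It was -1.08 without vehicle mouse 36 (adjusted p = 0.00178) and passed in each of the 14 alternatives. Abcb6, a porphyrin-linked transporter of mitochondria, fell by less. It was at 11.16, 10.98 and 11.08 in healthy and 10.78, 10.76 and 10.57 in vehicle mice, a difference of -0.37 (SE 0.09, limma adjusted p = 0.0122). It lost its call without healthy mouse 1 (adjusted p = 0.0618) or vehicle mouse 36 (0.0662).

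Abcd2, a second peroxisomal importer named here after its values were seen, was at 7.79, 9.53 and 7.63 in vehicle mice 7, 17 and 36, so that the mouse holding adipocyte transcripts stood above the others. Abcb8, a mitochondrial protein, had a difference of -0.42 (SE 0.16, limma adjusted p = 0.0696) and was not called, though its groups did not overlap. Abcb9, Abcb10 and Abcd4 were at -0.25, -0.11 and -0.26 and did not pass. The 4 soluble Abce and Abcf proteins, which act in translation, stayed within -0.12 and 0.02 of healthy in the mean and none was called by limma, nor had any an unadjusted p under 0.05. Neither sulfonylurea receptor (Abcc8 and Abcc9) was called, at -0.23 and -0.24, nor were Abcb5 and the pseudogene Slc22a13b-ps.

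**Figure D3:**
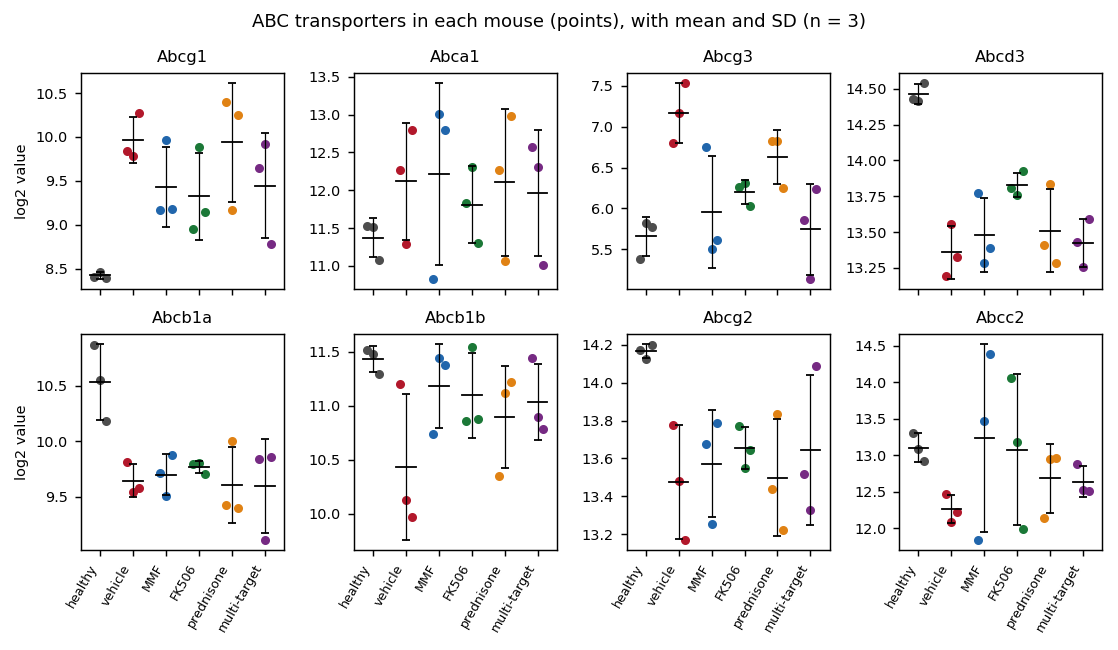
Points are the log2 values of single mice for 8 ABC transporters in the 6 groups, with the group mean and SD (n = 3). Abcd3 lies below every healthy mouse in all 15 Mrl/lpr mice, Abcg1 above every healthy mouse in all of them, and Abca1 spreads over most of its range within the MMF and prednisone groups.

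Genes that work beside the carriers were read from lists of related genes. The disease counts of these lists stand beside 15.7% of all genes that rose and 6.76% that fell (22.4% called in either direction). Of 23 measured partner carriers of the tubule 4 fell and 2 rose in disease. Slc28a2, a concentrating nucleoside carrier, rose (1.52 (SE 0.26, limma adjusted p = 0.00102)), Slc16a9, a monocarboxylate carrier, fell (-1.38 (SE 0.30, limma adjusted p = 0.00486)), and Slc13a2, which takes up the dicarboxylates that organic anion carriers exchange, also fell (-1.19 (SE 0.28, limma adjusted p = 0.00821)). Of 22 regulators and scaffolds 2 rose and 1 fell. The sterol sensor Nr1h2 (LXR beta) rose (0.48 (SE 0.14, limma adjusted p = 0.0253)), as did Keap1, the sensor that holds back Nrf2 (0.45 (SE 0.15, limma adjusted p = 0.0427)), whereas the bile acid receptor Nr1h4 (FXR) fell (-0.69 (SE 0.22, limma adjusted p = 0.0346)). Of 18 further sterol-handling genes 5 rose and 1 fell, led by the lipoprotein receptor Lrp1 (1.81 (SE 0.27, limma adjusted p = 0.00037)), the phospholipid transfer protein Pltp (2.003, SE 0.33, limma adjusted p = 0.000727) and Apoe (3.04 (SE 0.69, limma adjusted p = 0.00718)).

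Each drug arm was then compared with vehicle-treated Mrl/lpr mice. The 5 comparisons share the same 3 vehicle mice, which also enter the disease difference, so their values are given side by side. MMF changed 3 members, Abcc12 and Abca9 among them (3.75% of members, 1.58% of all genes). With limma 0 members and 0 genes passed for FK506, prednisone, the multi-target treatment or the mean of the 4 arms (percent called 0 in each). The unadjusted p was under 0.05 for 10 of 80 members and 19.9% of all genes under FK506, for 0 members and 3.15% of genes under prednisone, for 8 members and 15.6% under the multi-target treatment, and for 12 members and 24.4% in the mean of the arms. A count model on recovered reads (limma-voom) called 0 members for each single arm other than MMF and 1 for the mean of the arms. A member's 95% interval reached 0.50 to either side in the median.

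Abcc12 (MRP9), a pump of the MRP family whose substrates are little described, was at 9.17, 9.79 and 8.68 in vehicle mice 7, 17 and 36 and 10.02, 10.82 and 10.51 in MMF mice 1, 14 and 27. MMF mouse 1 lay closest to vehicle, and the difference was 1.23 (SE 0.25, limma adjusted p = 0.0459). Abca9 was at 9.95, 10.18 and 9.57 in the vehicle mice and 9.17, 9.09 and 9.13 under MMF, a difference of -0.77 (SE 0.18, limma adjusted p = 0.0486), and its 3 MMF mice lay at the healthy level of 9.21, 9.11 and 9.21. The MMF and vehicle mice did not overlap in either gene.

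All 3 MMF calls stood just under the threshold. Leaving out vehicle mouse 17 or 36, or MMF mouse 14 or 27, brought the count to 0, whereas it was 7 when vehicle mouse 7 was left out and 18 when MMF mouse 1 was. Shares of all genes called in these fits are not given here. Adjusted p over these alternatives reached 0.385 for both genes, when only the MMF and vehicle mice were fitted. Macrophage markers also moved in this arm, with 5 of 16 lower than vehicle and a median of -1.73, and their mean level relative to healthy was 2.13, 1.29 and 0.57 in MMF mice 1, 14 and 27. Among the vehicle mice Abca9 was highest in mouse 17, which held adipocyte transcripts, and lowest in mouse 36, which had the highest macrophage marker level. The part of macrophage or adipocyte content in the fall of Abca9 was not tested. From the partner lists, the 2 sterol-handling genes Pltp (-1.65 (SE 0.33, limma adjusted p = 0.0459)) and Lrp1 (-1.18 (SE 0.27, limma adjusted p = 0.0486)), named here after their values were seen, fell under MMF.

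The multi-target treatment was compared with the mean of the 3 single-drug arms to ask whether combination therapy moved a carrier beyond them. With limma 0 of 80 members and 0 of 15035 genes passed (percent called 0), and 0 members and 1.22% of genes had an unadjusted p under 0.05. With voom 0 members passed as well. Differences between the 4 arms in the members' responses were not otherwise tested.

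The 23 members called in disease were followed through the arms by the share of the disease difference left, which is 0% at the healthy mean and 100% at the vehicle mean. The same vehicle mice chose these genes and set the 100% level, so the shares are a description with no test. Averaged over the 4 arms the median share left was 74.5%, and 5 of the 23 members were under 50%. Slc22a18 came closest to healthy, with 18.1% left: it was at 14.05, 13.80 and 14.03 under MMF, 14.28, 14.04 and 14.16 under FK506, 13.52, 14.06 and 13.83 under prednisone and 14.15, 14.05 and 14.05 under the multi-target treatment. All 15 Mrl/lpr mice but vehicle mouse 36 were thus between 13.52 and 14.28.

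Abca9 kept 27.2% and Abcg3 31.4% of their disease difference. Abcg3 was at 6.75, 5.51 and 5.62 under MMF, 6.26, 6.31 and 6.03 under FK506, 6.82, 6.82 and 6.24 under prednisone and 5.86, 5.14 and 6.24 under the multi-target treatment. Under the multi-target treatment all 3 mice lay below the vehicle mice, with an unadjusted p of 0.000799 and an adjusted p of 0.163. In Abca9 the prednisone mice stayed near vehicle, at 10.01, 9.62 and 9.62, whereas FK506 mice were at 9.12, 9.48 and 9.14 and multi-target mice at 9.43, 8.99 and 9.70.

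**Figure D4:**
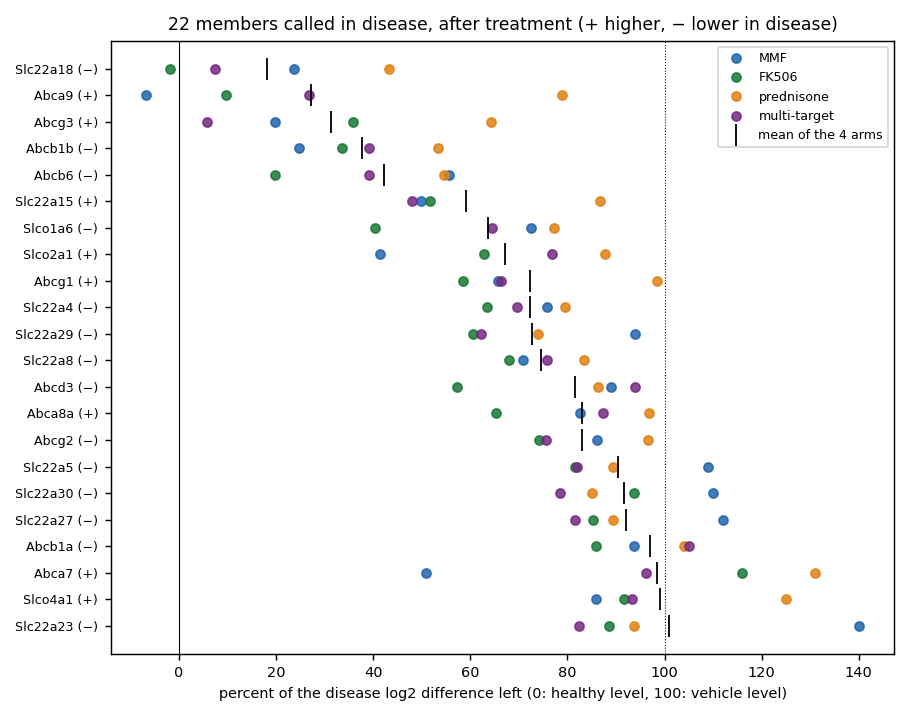
For 22 of the 23 members called in disease, the share of the vehicle-minus-healthy log2 difference left in each of the 4 treated groups (points) and its mean over the 4 (bar), where 0 is the healthy and 100 the vehicle level. The bars run from 18.1% for Slc22a18 to 101% for Slc22a23.

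Farthest from healthy stayed Slc22a23 (101% left), Slco4a1 (99%) and Abca7 (98.5%). Slc22a23 was at 12.86, 11.73 and 11.79 under MMF, 12.40, 12.61 and 12.55 under FK506, 12.37, 12.70 and 12.37 under prednisone and 12.79, 12.21 and 12.69 under the multi-target treatment, and no treated mouse reached the healthy range. Slco4a1 was at 9.21, 9.34 and 9.01, 9.36, 9.22 and 9.19, 10.15, 9.38 and 9.39 and 9.11, 9.81 and 8.91 in the same order of arms, above the healthy mice throughout. Abca7 was at 10.54, 10.29 and 10.42, 11.03, 10.74 and 10.66, 11.04, 10.71 and 10.93 and 10.69, 11.00 and 10.38, the mean being lowest under MMF. Its share left was 50.8% under MMF and 131% under prednisone.

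Set directly against healthy mice, the treated groups still differed in 11 members under MMF (13.8%, against 15.9% of all genes), 6 under FK506 (7.5%, against 7.27%), 14 under prednisone (17.5%, against 16.7%) and 6 under the multi-target treatment (7.5%, against 6.98%). These shares lay near those of all genes. The counts again turned on single mice. Shares of all genes called in the fits that follow are not given here, so no change particular to the members is read from them. Under MMF the count was 36 without MMF mouse 1 and 1 to 4 without any other MMF or healthy mouse. Under FK506 it was 5 without FK506 mouse 24 and 0 or 1 without any other FK506 or healthy mouse. Under prednisone it was 22 without prednisone mouse 29 and 3 to 7 without any other, and under the multi-target treatment 16 without multi-target mouse 39 and 1 or 2 without any other.

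Abcd3, Abcb1a and Slco4a1 were called in all 4 arms. Abcd3 was -0.98 under MMF (adjusted p = 0.00253), -0.63 under FK506 (0.0283), -0.95 under prednisone (0.00146) and -1.03 under the multi-target treatment (0.00206). Its call held without any single mouse except under FK506, where it was lost without any 1 of the healthy mice (adjusted p = 0.0894, 0.0787 and 0.105) or FK506 mouse 3 or 12 (0.0908 and 0.117). Abcb1a was -0.84, -0.77, -0.93 and -0.93, and Slco4a1 0.99, 1.06, 1.44 and 1.08, in the same order of arms. Of 6 fits without 1 mouse each, Abcb1a lost its call in 3, 5, 3 and 3, in that order of arms. Slco4a1 lost its call in 5, 6, 0 and 5. The adjusted p then reached 0.183 for Abcb1a (FK506, without healthy mouse 1) and 0.177 for Slco4a1 (multi-target, without mouse 18). With voom Slco4a1 was called only under prednisone, and quantile normalization ended its FK506 and multi-target calls. Leaving out both vehicle mouse 17 and FK506 mouse 12 ended the FK506 calls of all 3 genes.

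Slc22a6 fell below healthy under MMF (-1.50 (SE 0.46, limma adjusted p = 0.0402)) and prednisone (-1.51 (SE 0.46, limma adjusted p = 0.0369)), calls that were lost without any 1 of the healthy mice (adjusted p from 0.0839 to 0.109). Both Slc22a6 calls were also lost after quantile normalization and with voom. Leaving out MMF mouse 14 or 27 ended the first of them, and leaving out prednisone mouse 23 or 35 the second. Slc22a21, a carnitine carrier, rose above healthy under MMF (1.08 (SE 0.27, limma adjusted p = 0.0193)), and Abcc10, an MRP-type pump, under prednisone (0.59 (SE 0.15, limma adjusted p = 0.016)) and the multi-target treatment (0.59 (SE 0.15, limma adjusted p = 0.0294)). Slco1a4 fell under the multi-target treatment (-0.54 (SE 0.14, limma adjusted p = 0.0396)). These last 3 genes were named after their values were seen, and leaving out healthy mouse 2 ended each of these 4 calls (adjusted p = 0.063, 0.0715, 0.119 and 0.0912). Leaving out healthy mouse 1 or 3 ended all of them but that of Abcc10 under prednisone, which was lost without prednisone mouse 35. The Slc22a21 call was also lost without MMF mouse 14 or 27. Without multi-target mouse 6 or 18 the Abcc10 and Slco1a4 calls of that arm were lost. Quantile normalization also ended both Abcc10 calls, and fitting only the compared groups ended that of Slc22a21.

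Within the Mrl/lpr groups, several members differed widely between mice given the same treatment. This pattern was noticed in the data and its genes were named for it, so it is described without a test. Slc22a28 had the largest within-group SD of any member, 1.70, above that of 99.9% of all genes, followed by Slc22a7 (1.42), Slc22a19 (1.39), Slc22a22 (1.11) and Slc22a2 (0.96). In all, 15 of 80 members exceeded an SD of 0.5, against 10.5% of all genes. These SDs are pooled over all 6 groups, and so include the healthy mice, in which that of Slc22a28 was 0.11.

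Slc22a28 was at 10.27, 10.32 and 10.48 in the healthy mice. It was at 7.46, 8.26 and 7.04 in vehicle mice 7, 17 and 36, and at 8.74, 5.41 and 5.57 in MMF mice 1, 14 and 27. It was at 5.69, 5.66 and 8.99 in FK506 mice 3, 12 and 24, at 7.81, 9.36 and 5.75 in prednisone mice 23, 29 and 35, and at 6.44, 5.32 and 10.20 in multi-target mice 6, 18 and 39. The highest mouse of each treated arm lay more than 1 unit above the other mice of that arm. Multi-target mouse 39 lay just under the lowest healthy mouse, and mouse 18 of the same arm was the lowest of all 18 mice.

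The mouse with the highest Slc22a28 in each Mrl/lpr group (vehicle 17, MMF 1, FK506 24, prednisone 29 and multi-target 39) also had the highest value of its group, in all 5 groups, for 15 of the 79 other members (5.98% of all other genes). Slc22a7 was at 12.11, 10.68 and 9.05 in the MMF mice, 11.35, 11.51 and 13.52 in the FK506 mice, 11.14, 12.22 and 9.68 in the prednisone mice and 11.89, 10.98 and 12.92 in the multi-target mice. Slc22a19 (OAT5) was at 12.17, 10.19 and 8.76, 10.27, 10.71 and 13.31, 11.69, 12.31 and 9.63 and 11.66, 10.33 and 13.05 in the same order. In both genes MMF mouse 1, FK506 mouse 24, prednisone mouse 29 and multi-target mouse 39 were highest. Slc22a2 (OCT2) was at 12.75, 10.28 and 10.80, 10.86, 10.73 and 12.80, 12.06, 12.25 and 10.37 and 11.38, 10.70 and 13.02, again highest in those mice. Slc22a6 was highest in the same mice of the treated arms, though not in vehicle mouse 17, at 14.37, 12.39 and 13.20, 13.29, 13.27 and 14.05, 13.42, 13.85 and 12.66 and 13.24, 13.13 and 14.54.

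Abca1 ran the opposite way and was the lowest of its group in these mice in all 5 groups. It was the 1 member of 80 to do so, against 5.45% of all genes. It was at 10.83, 13.01 and 12.80 in the MMF mice, 11.83, 12.30 and 11.30 in the FK506 mice, 12.27, 11.06 and 12.99 in the prednisone mice and 12.57, 12.31 and 11.02 in the multi-target mice. Abcc2 was at 11.84, 13.47 and 14.39, 14.06, 13.19 and 11.99, 12.14, 12.95 and 12.96 and 12.88, 12.52 and 12.51, with the widest spread under MMF. Proximal tubule markers moved with the pattern: their mean level relative to healthy was -0.67, -0.55, -0.43, -0.58 and -0.43 in the 5 mice, and between -2.17 and -0.95 in the other 10 Mrl/lpr mice. Their part in it was not tested. Macrophage markers were at 2.96, 2.13, 1.92, 1.88 and 1.98 in the 5 mice, and between 0.57 and 3.54 in the other 10.

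**Figure D5:**
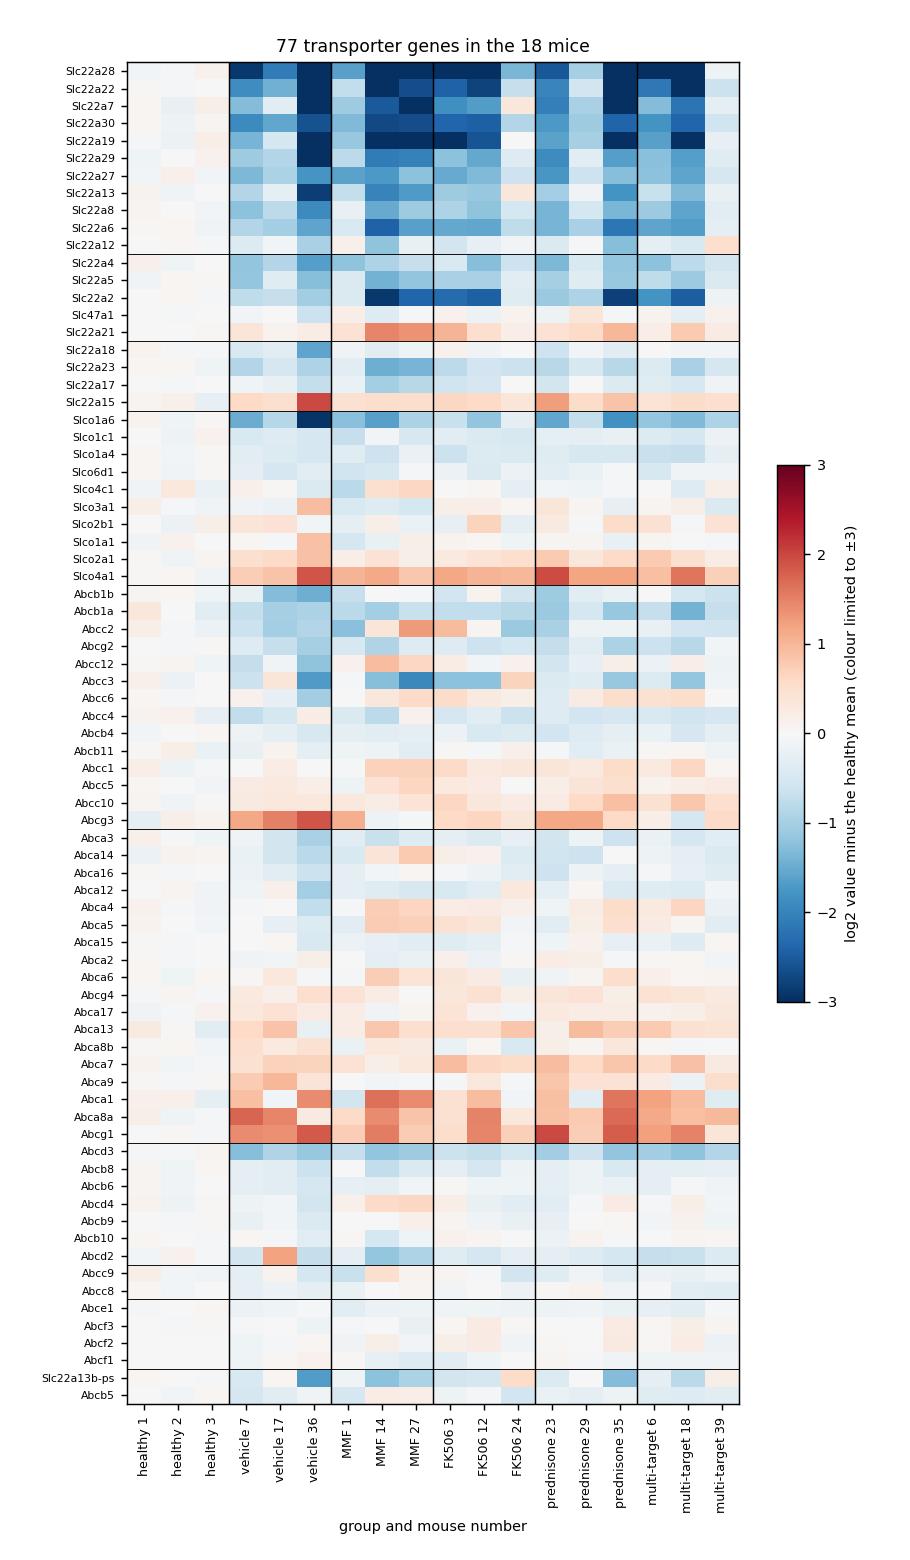
Colours give the log2 value minus the healthy mean (scale limited to ±3) of 77 members in the 18 mice, with members ordered by role and black lines between groups and roles. Slc22 carriers at the top are among the darkest blue in vehicle mouse 36 and in MMF mice 14 and 27, and pale in FK506 mouse 24 and multi-target mouse 39.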

How the data were processed

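Kidney cortex RNA from 18 mice was sequenced. Per the labels' protocols, column-purified RNA of frozen kidneys (1 ug per sample) was made into libraries. The deposited values are log2 expression values for 15035 gene symbols per library. Of software and build, the submitters' processing notes list limma and mm10 with no version. Aligner, annotation and the handling of reads that fit several genes: not given in the sources used here. Recovered reads are the antilogs divided by a step found for each library, and 74.5% to 74.9% of genes came out whole (tolerance 0.001 reads). Of the members, 69 were whole in at least 15 libraries and 11 were not, and how those were summarised is unknown. In 23 rows a date stood in place of the symbol.

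The log2 values were fitted without a filter in limma 3.58.1 (R 4.3.3) as means of 6 groups over 18 libraries, with a prior variance that follows mean expression (residual degrees of freedom: 12). In 11 comparisons p-values were adjusted by Benjamini-Hochberg over all 15035 genes at 0.05, and the fit was tested on simulated data. The members, lists and naming rule were chosen with earlier results of these data known, and some members and related genes are not reported here. The rule names up to 4 members per role with the largest called disease difference, called members of each drug comparison, a set of check members, and the 3 members called in disease that ended closest to and farthest from healthy. From each list of related genes it names up to 3 called in disease. Gene positions come from GENCODE vM21 (GRCm38) and promoter windows from RefSeq. Alternatives tried were quantile normalization, a pseudocount of 10, leaving out the lowest 25% of genes, array weights, a robust prior, fits of the compared groups alone, voom on recovered reads (added after seeing the data), and leaving out each mouse or the 2 mice holding other tissue.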

Additional observations from a re-analysis of the deposited data

How the results depend on the processing

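Of 839 values of 63 called single-gene results under the alternatives, 569 remained called, 270 were no longer called, and 0 reversed. Medians near 0 did change sign: that of all genes in disease from 0.09 to -0.07 with quantile normalization, that of the members under MMF from 0.01 to -0.06 with voom, and that of the Slco carriers in disease from 0.07 to -0.08 without vehicle mouse 36. Array weights, whose estimation stopped before convergence, raised the members called in every comparison but prednisone against vehicle: 41 in disease, 26 for MMF, 8 for FK506, 8 for the multi-target treatment, 11 for the mean of the arms, 22 for multi-target over single drugs, and 58, 53, 37 and 52 for MMF, FK506, prednisone and multi-target against healthy. The cause was not tested, and shares of all genes called are not set beside the counts of members in this section. For MMF against vehicle the count of 3 became 0 with quantile normalization, without the lowest 25% of genes, with only the compared groups, or without vehicle mouse 17 and FK506 mouse 12, and 1 with a robust prior. Voom gave 1 member for the mean of the arms. Against healthy, FK506 gave 3 without the lowest 25% of genes, 27 with only the compared groups and 0 without vehicle mouse 17 and FK506 mouse 12. Prednisone gave 31 with only the compared groups. The multi-target treatment gave 3 with quantile normalization and 22 with only the compared groups.

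Leaving out 1 mouse gave 9 to 24 members in disease, 0 to 18 for MMF, 0 to 6 for the mean of the arms (4 without prednisone mouse 23, 5 without vehicle mouse 7, 6 without MMF mouse 1), and 0 for the other drug comparisons. Against healthy it gave 1 to 36 for MMF, 0 to 5 for FK506, 3 to 22 for prednisone and 1 to 16 for the multi-target treatment. Groups left with 2 mice were assumed to vary like the others. No paired analysis was possible because the groups compared share fewer than 2 mouse numbers in the labels. The lowest member value stood for 30 reads, and among members called in disease the lowest were 31 in Abcg3, 46 in Slc22a27, 73 in Slc22a30 and 95 in Slc22a15. The part of depth in the calls was not tested. With 3 mice per group, the spread between mice limits the calls.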
